A study of Homo sapiens with 12 samples.

Results

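The genes described here were 10 chaperone genes of the heat-shock families and of the folding compartments of the cell, chosen by name: HSP90AA1, HSP90AB1, HSPA1A, HSPA1B, HSPA8, HSPA5, HSPD1, HSPE1, HSPH1 and DNAJB1. All 10 were in the tables, among 35620 genes with a count. The study measured single human cells by LAST-seq, in which mRNA strands are given a T7 promoter at their 3′ ends and transcribed directly, and set it beside CEL-seq2, which amplifies from cDNA, and SMART-seq V4, which amplifies full-length cDNA by PCR. HEK293T cells, a transformed line of human embryonic kidney origin, were sorted live as single cells and were also measured as cell lysate and, by LAST-seq, as wells of 15 pg total RNA. The haploid line eHAP1, derived from a chronic myeloid leukaemia, was measured by LAST-seq as WT cells and as SCC4 KO cells, in which a Cas9 complex with a crRNA had been used to disrupt SCC4 (MAU2), a part of the loader that places cohesin on chromosomes. The KO cells came from clonal expansion, so that clone and genotype cannot be told apart. Cells of both lines were detached with trypsin and stained with Zombie Green to exclude dead cells, and only the eHAP1 cells were also stained with Hoechst and gated for haploid G1 cells. HEK293T cells were grown in DMEM and eHAP1 cells in IMDM, with 10-Deacetylbaccatin-III upon subcloning of eHAP1 to keep it haploid. No group was heat-shocked by design.

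Heat-shock proteins bind unfolded or aggregating proteins and use ATP to hold or refold them. HSP70 proteins work with a J-domain partner that brings the substrate and a nucleotide exchange factor that releases it, HSP90 proteins finish the folding of kinases and receptors, and a barrel of HSP60 with its HSP10 lid folds proteins in the mitochondrial matrix. The factor HSF1 raises the inducible members upon stress by binding inverted repeats of a short GAA-containing unit in their promoters, whereas the endoplasmic reticulum member HSPA5 is raised by the unfolded protein response.

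The promoters of the members on which the comparisons turned are shown so that the heat-shock units can be seen beside the levels. Each line gives the 250 bases before the start site in RefSeq for GRCh38.p14, 5′ to 3′ on the strand of the gene, and capitals mark every match to GAANNTTC or TTCNNGAA, the inverted pair of units, on either strand.
HSP90AA1: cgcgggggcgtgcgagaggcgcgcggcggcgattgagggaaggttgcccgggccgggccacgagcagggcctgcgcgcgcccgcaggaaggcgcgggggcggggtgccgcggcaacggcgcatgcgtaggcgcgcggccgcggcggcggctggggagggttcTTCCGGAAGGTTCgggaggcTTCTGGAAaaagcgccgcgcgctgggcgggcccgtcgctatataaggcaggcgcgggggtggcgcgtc
HSP90AB1: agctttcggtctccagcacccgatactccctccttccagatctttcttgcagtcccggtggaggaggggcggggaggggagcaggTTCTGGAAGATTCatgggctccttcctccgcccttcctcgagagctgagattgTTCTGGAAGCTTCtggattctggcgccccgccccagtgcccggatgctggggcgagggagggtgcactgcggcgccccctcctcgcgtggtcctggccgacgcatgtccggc
HSPA1A: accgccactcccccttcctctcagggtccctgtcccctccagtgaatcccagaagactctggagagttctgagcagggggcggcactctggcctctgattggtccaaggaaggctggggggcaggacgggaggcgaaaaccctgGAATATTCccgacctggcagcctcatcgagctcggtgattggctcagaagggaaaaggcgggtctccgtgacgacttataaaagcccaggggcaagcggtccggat
HSPA1B: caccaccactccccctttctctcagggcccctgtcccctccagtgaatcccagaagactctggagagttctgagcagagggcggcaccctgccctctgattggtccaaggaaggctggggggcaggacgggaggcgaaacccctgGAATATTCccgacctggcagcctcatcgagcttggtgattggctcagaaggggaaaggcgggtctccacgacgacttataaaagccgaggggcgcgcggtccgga
HSPA8: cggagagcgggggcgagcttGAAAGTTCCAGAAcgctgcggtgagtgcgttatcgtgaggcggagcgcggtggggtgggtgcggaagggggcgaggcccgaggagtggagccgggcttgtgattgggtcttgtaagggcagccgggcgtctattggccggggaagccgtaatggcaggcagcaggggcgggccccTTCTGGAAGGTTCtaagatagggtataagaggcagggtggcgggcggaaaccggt
The windows lie at chr14:102087045-102087294 (minus strand) for HSP90AA1, chr6:44247693-44247942 (plus) for HSP90AB1, chr6:31815293-31815542 (plus) for HSPA1A, chr6:31827488-31827737 (plus) for HSPA1B and chr11:123062137-123062386 (minus) for HSPA8. They held 3, 4, 1, 1 and 4 overlapping matches, respectively. HSP90AB1 and HSPA8, which are counted among the constitutive members, each held 2 matches to the longer run of 3 units, GAANNTTCNNGAA or TTCNNGAANNTTC, HSP90AA1 held 1, and neither HSPA1A nor HSPA1B held one. All 10 members had a RefSeq entry, with 16 windows of 250 bases before and 50 bases after a start site. The pair was found in 8 of these 16 windows, from 7 of the 10 members, and in 13.5% of the 35116 windows of all genes. The run of 3 units was found in 4 of the 16 windows, each of another member, and in 0.490% of all windows. The longer run contains the pair, so these counts overlap. A match is a description of the letters and not a bound site.

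The stretches shown for HSPA5 and between the divergent HSPD1 and HSPE1 starts held no match to the pair, unlike the window of a further HSPD1 start. In the HSPA5 window at chr9:125241344-125241593 (minus strand), capitals mark CCAAT, 9 bases and CCACG, the form of the endoplasmic reticulum stress element, which was in 1 of the 16 member windows and in 0.0769% of all windows. HSPE1, for HSP10, and HSPD1, for HSP60, start 105 bases apart on opposite strands, and the line for HSPE1 gives the 104 bases between them at chr2:197500275-197500378 (plus strand), without a match to the pair.
HSPA5: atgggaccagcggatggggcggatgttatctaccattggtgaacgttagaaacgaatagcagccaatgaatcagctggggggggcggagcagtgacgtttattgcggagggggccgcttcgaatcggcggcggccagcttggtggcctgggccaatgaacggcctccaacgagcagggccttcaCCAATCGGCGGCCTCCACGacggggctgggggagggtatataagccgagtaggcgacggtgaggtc
HSPE1: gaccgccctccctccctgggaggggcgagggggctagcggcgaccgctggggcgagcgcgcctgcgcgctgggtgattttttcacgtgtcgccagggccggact
Apart from this shared window, 1 further HSPD1 start had the pair and the run of 3 units in its window, DNAJB1 had the pair in 2 windows, and the single HSPH1 window had no match.

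Each HEK293T library by LAST-seq or CEL-seq2 pooled 10 wells of 62816 to 195438 UMIs, SMART-seq wells held 747676 to 818813 reads, and the eHAP1 libraries held 73 and 75 WT and 77 and 76 KO cells of 18022 to 926415 UMIs. The LAST-seq libraries of HEK293T used the same 10 barcodes, as did the CEL-seq2 libraries, as labelled. Libraries of a group differed in the spike-in mix on their labels. It was A60 in LAST-seq cells 1 and SMART-seq lysate 1, and ERCC in LAST-seq cells 2, SMART-seq lysate 2 and CEL-seq2 cells 2. CEL-seq2 cells 1 had both, and LAST-seq lysate had A60. Spike-in rows held 3.86% and 3.28% of the UMIs in LAST-seq cells and 0.126% in LAST-seq lysate. All 6 SMART-seq cells had a near-identical well among the 16 wells of the second lysate library, and 3 pairs of near-identical wells were found within the first. Levels are given as CPM, the UMIs (for SMART-seq, the reads) of a gene per 1000000 of all genes, summed over the wells of a library. MAU2 was at 44.2 and 41.2 CPM in the WT batches and at 9.17 and 14.5 in the KO batches. Among the markers of HEK293T, PAX2 and LHX1 were at 0 to 7.95 CPM in all HEK293T libraries and at 7.60 to 27.0 in eHAP1, against the label, whereas NEFL was detected in every HEK293T library and at 0 in the WT eHAP1 batches. INA was at 8.95 and 10.7 CPM in WT eHAP1 and at 3.51 and 0 in the LAST-seq HEK293T cells, and NEFM was at 0 in WT eHAP1 and also in the LAST-seq and SMART-seq HEK293T cells. The 5 blood markers summed to 1.63 and 2.11 CPM in WT eHAP1, with 1 of 5 detected, and to 4.97 and 5.22 in KO. They summed to more in HEK293T cells, which are not of blood origin, at 8.42 and 12.6 by LAST-seq, 18.0 and 14.4 by CEL-seq2 and 29.2 by SMART-seq.

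The batches of eHAP1 were closer to each other than counting error allows. Of genes with at least 2000 UMIs, 80.6% in WT and 95.01% in KO differed between batches by less than 1 counting SD, compared with 21.4% between the LAST-seq libraries and 2.27% between the CEL-seq2 libraries of HEK293T cells. These batches are therefore not independent measurements of the spread, and adjusted p-values that use them may be too small. The study names a batch correction of these UMIs, and whether the deposited values hold it is not given in the sources used here.

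A level in CPM is a share of the captured mRNA, so a lower share and a larger amount of other mRNA cannot be told apart. Each UMI stands for 1 captured 3′ end, so that UMI levels of different genes are compared here without a length, and SMART-seq reads are compared between genes per kilobase of exon. Capture may also differ between genes. The study proposes that few copies, secondary structure or a short poly-A tail may hinder LAST-seq for some genes, and no correction was made for this. The 95% intervals are exact Poisson intervals, which take in counting error alone.

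HSP90AA1, the inducible cytosolic HSP90, had the highest UMI level of the 10 members in every LAST-seq and CEL-seq2 library. It was at 1557 and 1421 CPM in the LAST-seq cell libraries, 2698 and 2434 in the CEL-seq2 cell libraries, 2497 and 2573 in the WT eHAP1 batches and 1643 and 1648 in the KO batches. Its constitutive partner HSP90AB1 followed at 750 and 791, 1145 and 1484, 1111 and 1142, and 1144 and 1151 in the same order. The counting intervals of the 2 genes did not overlap in any of these libraries or batches. Over single wells their ranges overlapped in CEL-seq2 cells, library 2, with HSP90AA1 from 1713 and HSP90AB1 up to 2188 CPM. They also overlapped in KO batch 1 (from 1146 and up to 1440) and KO batch 2 (from 1348 and up to 1408).

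The mitochondrial pair came next in LAST-seq HEK293T cells and in WT eHAP1 cells, in opposite order. In LAST-seq cells HSPD1 was at 630 in both libraries and HSPE1 at 576 and 607 CPM, and the counting interval of HSPD1 took in the HSPE1 level in library 2 (590 to 671) and not in library 1 (589 to 672). In WT eHAP1 HSPE1 was at 559 and 576 and HSPD1 at 336 and 341, far outside each other's counting error. HSPE1 also stood above HSPD1 in the other LAST-seq libraries of HEK293T, at 618 compared with 341 in lysate and at 579 compared with 488 in 15-pg RNA. In CEL-seq2 cells, library 2, HSPA8 at 602 stood above HSPE1 at 444.

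The remaining constitutive members and the HSP70 partners were lower. HSPA8, the constitutive cytosolic HSP70, was at 333 and 373 CPM in LAST-seq cells and at 139 and 140 in WT eHAP1. HSPA5, the HSP70 of the endoplasmic reticulum, was at 244 and 249 compared with 170 and 169. HSPH1, an HSP110 that releases nucleotide from HSP70, was at 171 and 146 compared with 133 and 133. In WT eHAP1 the counting intervals of HSPH1 and HSPA8 overlapped, and in LAST-seq cells HSPH1 stood below HSPA5 in both libraries. DNAJB1, the inducible J-domain partner of HSP70, was at 65.3 and 68.2 in LAST-seq cells and at 40.8 and 43.6 in WT eHAP1.

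In SMART-seq cells the order per kilobase of exon was headed by HSP90AB1 at 380 and HSP90AA1 at 374 RPKM (CPM per kilobase of exon), followed by HSPA8 at 296 and HSPE1 at 279. HSPD1 was at 165, HSPA5 at 90.2, DNAJB1 at 14.9, HSPH1 at 9.52 and HSPA1B at 3.81. This is 1 library of 6 wells, and the exon length taken over all annotated transcripts lowers the value of genes with many of them.

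**Figure D1:**
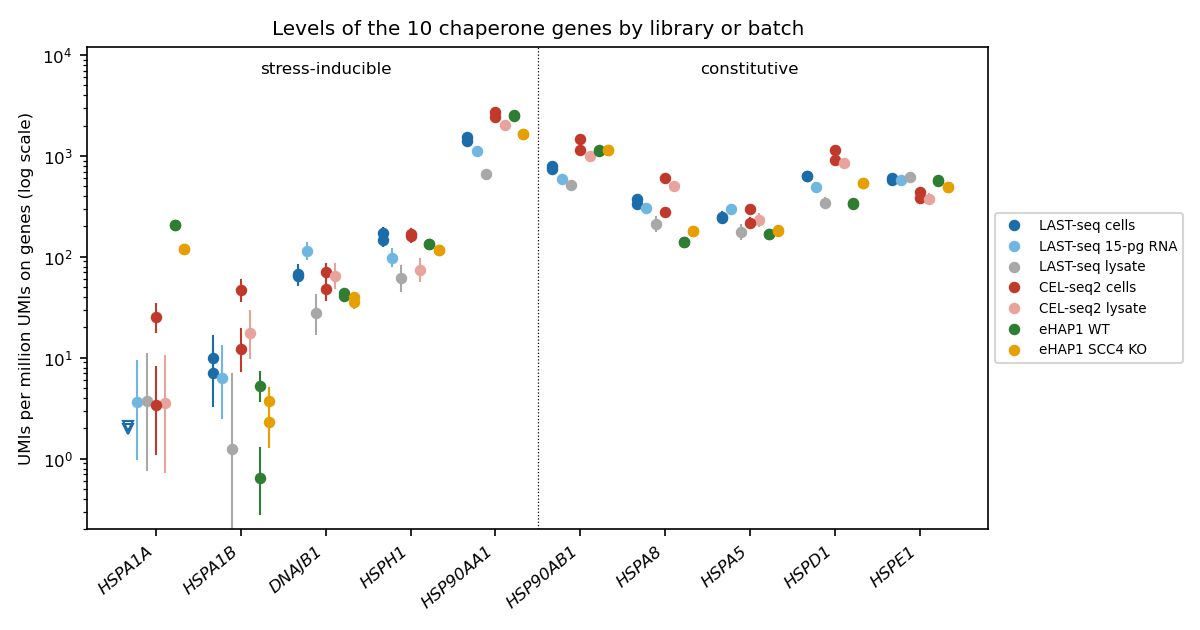
CPM of the 10 members in each LAST-seq and CEL-seq2 library on a log axis, as points with exact Poisson intervals at the 95% level, and with open triangles for the floor of 3 counts where a library had none. HSP90AA1 was highest throughout, and HSPA1A stood at 207 and 208 in WT eHAP1 and at the floor in LAST-seq HEK293T cells.

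HSPA1A, one of a pair of neighbouring genes that encode the inducible HSP70, differed most between the lines, and its partner HSPA1B was low in both. No UMI of HSPA1A was found in the 10 cells of either LAST-seq library, whereas it was detected in all 73 and all 75 WT eHAP1 cells. WT cells held 6 to 60 HSPA1A UMIs with a median of 19 in batch 1 and 3 to 198 with a median of 29 in batch 2. The share of all genes split in this way between the cells of the lines was not taken, and cells are not replicates. Over the summed libraries the HSPA1A level of HEK293T was at least 203-fold lower than that of WT eHAP1, with 0 against 4085 UMIs and a floor of 3 counts over the group, or 1.02 CPM. This bound is for the 20 LAST-seq cells, and HSPA1A was found in the other LAST-seq libraries of HEK293T, with 3 UMIs (3.76 CPM) in lysate and 4 (3.61 CPM) in 15-pg RNA.

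In LAST-seq HEK293T cells all detected UMIs of the pair were those of HSPA1B. This gene was at 7.02 and 9.94 CPM in LAST-seq cells, from 10 and 15 UMIs, and at 5.29 and 0.650 in the WT eHAP1 batches. HSPA1A thus made up 97.5% and 99.7% of the UMIs of the pair in WT and 98.1% and 96.9% in KO batches, with the lowest counting bound at 95.9%. In CEL-seq2 cells the pair was split unevenly: library 1 had 39 HSPA1A UMIs, of which 37 lay in 1 well, and 19 of HSPA1B, and library 2 had 5 and 68. In SMART-seq cells 1 read was assigned to HSPA1A and 47 to HSPA1B.

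The transcripts share much of their sequence, and their promoters are alike. In the annotation, 75.1% of the 50-base words of HSPA1A are also in HSPA1B, and 22.2% of those in its last 500 bases. For HSPA1B these shares are 71.6% and 1.33%. Their RefSeq promoter windows, 50 bases after the start site included, were identical at 277 of 299 aligned bases (92.6%). Reads within the shared stretches cannot be assigned to 1 of the genes, and whether this differs between the assays was not tested.

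HEK293T cells were compared with WT eHAP1 cells by LAST-seq to ask which chaperones differ between the lines. Of the 10 members, HSPA8 and HSPD1 were higher in HEK293T, HSP90AA1, HSP90AB1 and HSPA1A were lower, and 5 did not pass the test (edgeR's quasi-likelihood test on 2 library sums a group, Benjamini-Hochberg adjusted p under 0.05). Over the 13103 genes tested, 15.0% were called higher and 18.7% lower. Here and for the KO, a fold is a ratio of summed CPM, whereas a log2 value comes from the TMM-scaled fit, so that they differ in size. HSPA8 was 2.53-fold higher by the summed levels (log2 1.13, SE 0.113, adjusted p = 0.00113) and HSPD1 was 1.86-fold higher (log2 0.69, SE 0.116, adjusted p = 0.00625). HSP90AA1 was 1.71-fold lower (log2 −0.97, SE 0.129, adjusted p = 0.00279) and HSP90AB1 was 1.47-fold lower (log2 −0.76, SE 0.113, adjusted p = 0.00423).

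The median log2 difference was 0.04 for the 5 inducible members, 0.33 for the 5 constitutive members and −0.05 for all genes. HSPA5 at 0.33, DNAJB1 at 0.45, HSPE1 at −0.15, HSPH1 at 0.04 and HSPA1B at 1.36 did not pass the test. A scaling to total UMIs moved the median of all genes by 0.21 and added HSPA5 and DNAJB1 as higher, and without WT batch 1 HSPD1 did not pass. A rule of over 2-fold in every pair of libraries, with no test, held for HSPA1A and HSPA8 and for 25.4% of all genes. Line, culture medium, sort gate and library series differ together, so their parts cannot be told apart.

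Other folding genes were counted in fixed lists. Of 27 measured heat shock factor and co-chaperone genes, 11 were higher and 5 lower in HEK293T, with a median log2 difference of 0.44. UBB, a polyubiquitin gene, had 580 UMIs in HEK293T (204 and 191 CPM) and 0 in WT eHAP1, at least 1296-fold higher, the small heat-shock protein HSPB1 was lower (log2 −2.79, SE 0.132) and the HSP90 partner CHORDC1 was higher (log2 1.95, SE 0.163). Of 19 endoplasmic reticulum genes, 2 were higher and 3 lower, with a median of −0.07, among them XBP1 at 1.15, the luminal HSP90 gene HSP90B1 at −1.11 and the collagen chaperone SERPINH1 at −0.91. Of 9 mitochondrial folding genes, 3 were higher and 1 lower, with a median of 0.50, among them the protease gene YME1L1 at −0.85, the J-domain gene DNAJA3 at 0.72 and CLPP at 0.71. SERPINH1 did not pass with DESeq2 (−0.89), with total UMIs (−0.70) or without either WT batch (−0.99 and −0.89). DNAJA3 and CLPP did not pass without either WT batch, nor YME1L1 without WT batch 2.

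The SCC4 KO comparison asked how the members change when cohesin loading is impaired. HSP90AA1, HSPA1A, HSPE1 and HSPH1 fell, HSPD1 and HSPA8 rose, and HSP90AB1, HSPA5, DNAJB1 and HSPA1B did not pass the test. The same test called 13.3% of 15069 genes higher and 16.2% lower in KO. The batches are not known to be separate cultures, so these p-values measure the spread between the batch sums, which may be technical.

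Of the cytosolic HSP90 genes, the inducible one fell and the constitutive one did not pass. HSP90AA1 ranged over WT cells from 1958 to 2978 CPM with a median of 2530 in batch 1 and from 1942 to 3329 with a median of 2559 in batch 2. KO cells lay between 1146 and 2087 around a median of 1643 in batch 1 and between 1348 and 2156 around a median of 1642 in batch 2. Both KO medians were below the lowest WT cell, while the ranges of cells overlapped. The summed level was 1.55-fold lower in KO (log2 −0.69, SE 0.0860, adjusted p = 0.000285), whereas HSP90AB1 had a log2 difference of −0.04 (SE 0.0754, adjusted p = 0.755). The ratio of HSP90AA1 to HSP90AB1 UMIs was 2.25 in both WT batches and 1.44 and 1.43 in the KO batches.

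**Figure D2:**
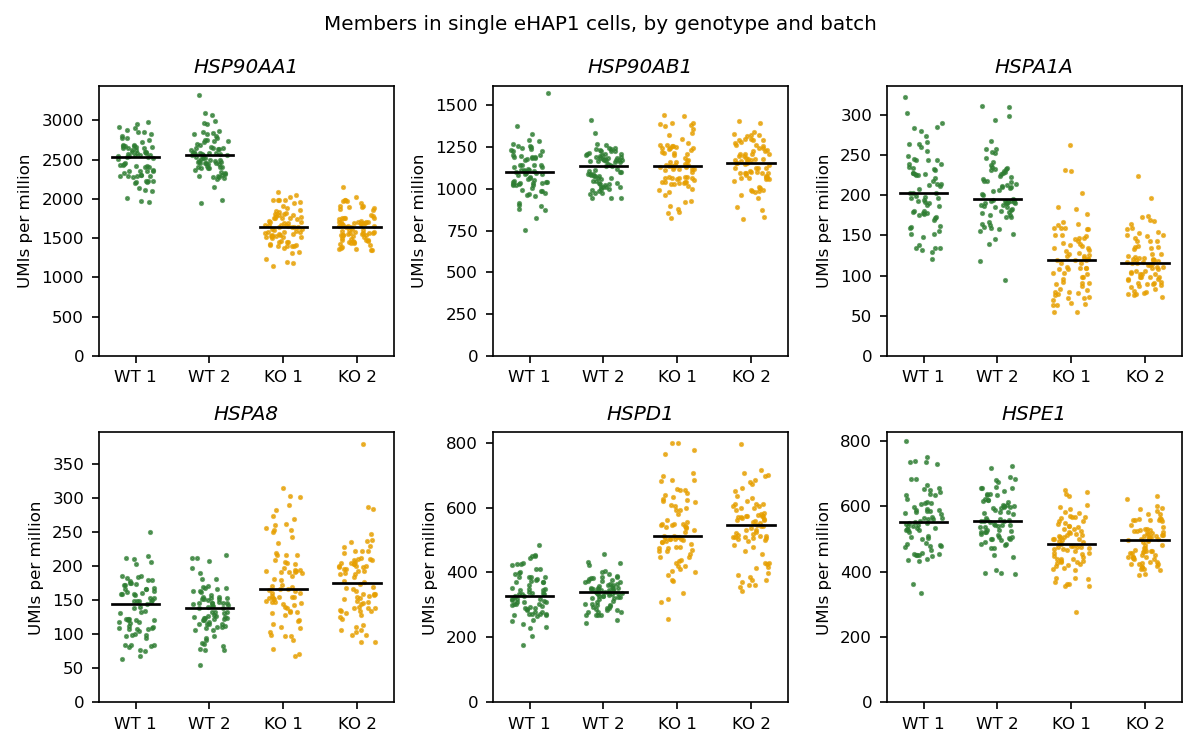
CPM of members in each eHAP1 cell, by genotype and batch, with 73, 75, 77 and 76 cells as points and the median of each batch as a line. HSP90AA1 and HSPA1A were lower and HSPD1 higher in KO than in WT batches, with overlap between single cells.

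The HSP70 genes moved in different directions. HSPA1A was at 207 and 208 CPM in WT and at 121 and 119 in KO, 1.74-fold lower (log2 −0.86, SE 0.0605, adjusted p = 9.32e-06). It was detected in all 77 and all 76 KO cells, at 54.8 to 262 CPM in batch 1, whose WT counterpart spanned 120 to 322. HSPA8 was at 139 and 140 in WT and at 180 and 179 in KO, 1.28-fold higher (log2 0.29, SE 0.0589, adjusted p = 0.00501). HSPA5, at 170 and 169 compared with 184 and 182, did not pass (log2 0.04, adjusted p = 0.668). HSPA1B, with 8 to 44 UMIs a batch, was at 5.29 and 0.650 in WT and at 2.33 and 3.77 in KO, and its batches overlapped.

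Of the partners of HSP70, HSPH1 fell and DNAJB1 did not pass the test. HSPH1 was at 133 in both WT batches and at 118 in both KO batches (log2 −0.24, SE 0.0588, adjusted p = 0.0120). DNAJB1 was at 40.8 and 43.6 compared with 35.9 and 40.1 (log2 −0.22, SE 0.100, adjusted p = 0.144).

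HSPD1 and HSPE1, which have divergent starts 105 bases apart, moved in opposite directions. HSPD1 also has the further start outside that stretch, with heat-shock units in its window. HSPD1 was at 336 and 341 CPM in WT and at 534 and 539 in KO, 1.59-fold higher (log2 0.60, SE 0.0641, adjusted p = 0.000115). HSPE1 was at 559 and 576 in WT and at 492 and 493 in KO, 1.16-fold lower (log2 −0.27, SE 0.0675, adjusted p = 0.0135). The ratio of HSPD1 to HSPE1 UMIs was therefore 0.6001 and 0.592 in WT and 1.09 in both KO batches. Processed pseudogenes named after HSPD1 held 6.11% and 7.37% of the UMIs of the gene and its pseudogenes in WT and 11.4% and 12.0% in KO. Those named after HSPE1 held 15.4% and 16.9% in WT and 18.4% and 17.7% in KO. Adding pseudogene UMIs to their genes kept the same 6 calls. The annotated spans of both genes overlap on opposite strands at chr2:197500140-197503449, and whether the counting used strand is not given in the sources used here.

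By group, 3 of 5 inducible members fell and none rose, with a median log2 difference of −0.24, and of 5 constitutive members 2 rose and 1 fell, with a median of 0.04, compared with −0.01 over all genes. No member was over 2-fold different in every pair of batches, a rule that 10.5% of genes met. Without KO batch 1, HSPA1A and HSPD1 were called and the other 4 did not pass, with log2 differences of −0.69 for HSP90AA1, 0.29 for HSPA8, −0.27 for HSPE1 and −0.24 for HSPH1, as with all batches but from 1 library fewer. HSPH1 was also lost without KO batch 2, without WT batch 2 or without the filter on low counts, and HSPE1 without that filter. HSPA5 was called higher with total UMIs (0.11) and HSP90AB1 lower without WT batch 1 (−0.11). Markers moved with genotype as well. VIM was at 202 and 204 CPM in WT and at 102 and 99.9 in KO, and NEFL at 0 in WT and at 7.93 and 14.5 in KO. The other markers of their lists did not all go the same way. Against VIM, KRT18 was at 7.06 and 5.69 in WT and at 11.8 and 12.3 in KO, while the batches of KRT8 overlapped. Against NEFL, INA was at 8.95 and 10.7 in WT and at 6.22 and 3.08 in KO, while PAX2, LHX1 and NEFM rose with NEFL. The part of these markers in the result was not tested.

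Among the fixed lists, 4 of 26 co-chaperone genes rose and 9 fell in KO, with a median log2 difference of −0.02. BAG3 (log2 −1.40, SE 0.252) and BAG2 (log2 −0.63, SE 0.0805), which bind HSP70, fell, and BAG5 (log2 0.59, SE 0.114) rose. Of 19 endoplasmic reticulum genes 5 rose and 2 fell, with a median of 0.23. These included the disulfide isomerase genes PDIA6 at 1.98 and PDIA3 at 0.49, which rose, and MANF at −0.48, which fell. Of 9 mitochondrial genes 1 rose and 3 fell, with a median of −0.18. The mitochondrial HSP70 gene HSPA9 fell (−0.46), as did YME1L1 (−0.42). The 1 call in the other direction, CLPX at 0.32, was lost with the batch as a replicate block, with DESeq2, without the filter on low counts and without either WT batch or KO batch 1. The call of BAG3 was lost without WT batch 1 (−1.30).

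The share of the members' UMIs held by the 5 inducible members (HSP90AA1, HSPA1A, HSPA1B, HSPH1 and DNAJB1) followed HSP90AA1. It was 41.5% and 38.3% in LAST-seq cells, 37.2% in 15-pg RNA and 28.7% in LAST-seq lysate, 49.7% and 40.9% in CEL-seq2 cells and 42.6% in CEL-seq2 lysate. It was 55.5% in both WT eHAP1 batches and 43.1% in both KO batches, and single WT cells ranged from 47.7% to 63.2% in batch 2. Without HSP90AA1 among the inducible genes the shares were 5.62% and 5.21% in LAST-seq cells, 3.60% in lysate, 7.43% and 7.24% in WT and 6.22% and 6.27% in KO. KO batches were below WT batches under both groupings.

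**Figure D3:**
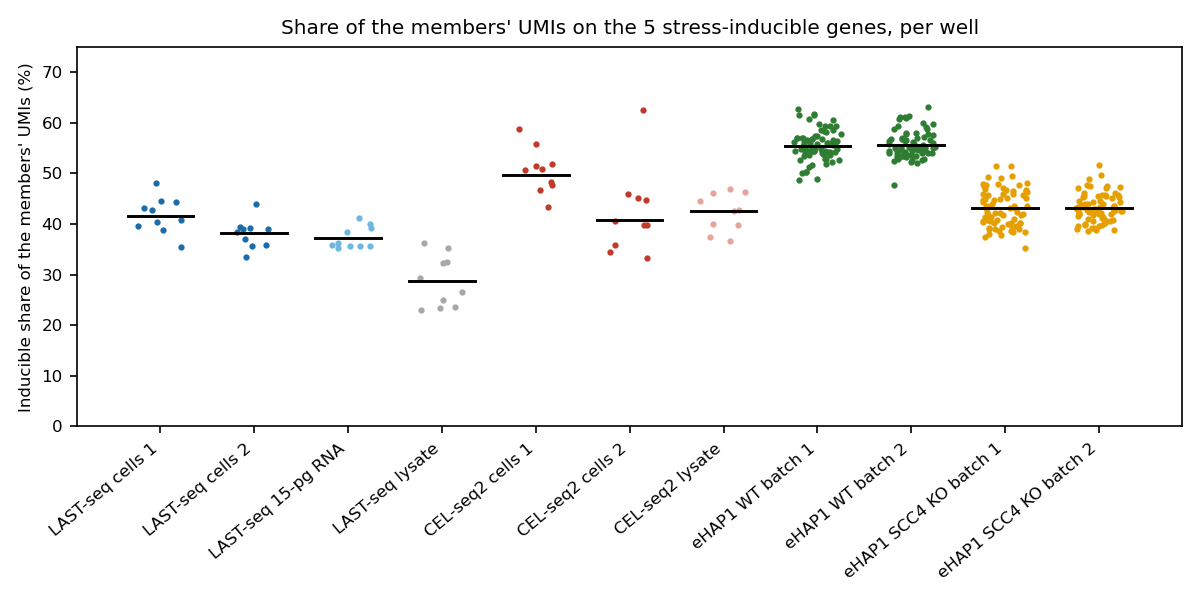
Share of the members' UMIs held by the 5 inducible members, in percent, for each well or cell (points) and for the summed UMIs of each library (lines). WT eHAP1 batches stood at 55.5%, KO batches at 43.1% and LAST-seq lysate, the lowest of the UMI libraries, at 28.7%.

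LAST-seq and CEL-seq2 were compared on HEK293T cells to see whether the assay sets the level. None of the 9 members tested passed by edgeR or by DESeq2, although 26.1% of 11270 genes did by edgeR. At an unadjusted edgeR p under 0.05 the count was 1 gene of the 9. The share of all genes at that looser threshold was not taken, and it cannot be below 26.1%. This gene, HSPE1, was at 576 and 607 CPM by LAST-seq and at 385 and 444 by CEL-seq2 (log2 0.82, SE 0.293, edgeR adjusted p = 0.0659). Pseudogenes named after HSPE1 held 12.2% and 13.3% of the UMIs of gene and pseudogenes by LAST-seq, and 12.1% and 28.6% by CEL-seq2. The median log2 difference was −0.09 for the 4 inducible members tested, −0.04 for the 5 constitutive members and −0.05 for all genes. HSPA1A failed the filter on low counts, with 0 UMIs by LAST-seq and 44 by CEL-seq2, which is at least 14.3-fold lower, with 37 of the 44 from 1 well.

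Leaving out either CEL-seq2 library changed these calls. HSPA8 was at 277 and 602 CPM by CEL-seq2 and at 333 and 373 by LAST-seq, so that the LAST-seq libraries lay between the CEL-seq2 libraries. Without CEL-seq2 library 1, HSP90AB1, HSPA1B and HSPD1 were called, and without library 2 HSPA1A, HSPA8 and HSPE1 were called. With total UMIs in place of TMM, which moved the median of all genes by −0.35, HSP90AA1 and HSP90AB1 were called lower by LAST-seq. Of 27 co-chaperone genes 7 were higher and 2 lower by LAST-seq, with a median of 0.33. Of 20 endoplasmic reticulum genes 3 were higher and 4 lower, with a median of 0.17, and of 9 mitochondrial genes 1 was lower, with a median of −0.02.

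Reads per UMI were high for HSP90AA1 by LAST-seq. Over LAST-seq cells HSP90AA1 had 10.9 and 7.63 reads per UMI in libraries 1 and 2, compared with 4.83 and 4.48 over all genes. In CEL-seq2 cells, library 1, it had 3.34 compared with 2.71. Pseudogenes named after HSP90AA1 held 1.51% and 0.832% of the summed UMIs in LAST-seq cells and 11.1% and 12.1% in CEL-seq2 cells, and adding them left 0 members called.

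Cells were compared with lysate and with 15-pg RNA. One group held 1 library in each case, so that there was no test, and a member was counted where it was over 2-fold apart in the same direction in every pair of libraries. By LAST-seq, 9 members averaged 1 or more UMIs per well in cells or in lysate. Of these, 4 were over 2-fold higher in cells than in lysate, compared with 17.1% of all genes under the same filter. For lower levels in cells the count was 0, compared with 4.97%. HSP90AA1 was at 1557 and 1421 CPM in cells and at 657 in lysate (log2 1.18). HSPH1 was at 171 and 146 compared with 61.4 (log2 1.35), and DNAJB1 at 65.3 and 68.2 compared with 27.6 (log2 1.25). HSPA1B had 25 UMIs in cells and 1 in lysate, a ratio of 6.80 with a counting interval from 1.11 to 279.

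All 4 genes over 2-fold were inducible members, of which HSP90AA1, HSPH1 and DNAJB1 averaged over 1 UMI per well in both groups. HSPA1B met that mean through the cells alone, where it was high, so its call is partly set by the filter. The remaining inducible member, HSPA1A, met it in neither group and was not counted. It had 0 UMIs in cells and 3 in lysate, the other direction. The constitutive members were at log2 differences between −0.06, for HSPE1, and 0.88, for HSPD1, and the median of all genes was 0.35. With TMM scaling in place of totals, 1 member remained over 2-fold. Compared with 15-pg RNA, 0 of 9 members were over 2-fold higher or lower, against 7.42% and 6.18% of all genes, and DNAJB1 had the largest difference, at 115 CPM in RNA (log2 −0.79).

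By CEL-seq2 1 member was over 2-fold higher in cells, compared with 18.2% of all genes. This was HSPH1, at 169 and 159 CPM in cells and 74.5 in lysate (log2 1.13). HSP90AA1 (log2 0.33) and DNAJB1 (log2 −0.16) were not past 2-fold, the median of all genes was 0.49, and with TMM scaling 0 members were past it.

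By SMART-seq 2 members were over 2-fold lower in cells than in both lysate libraries, compared with 27.5% of all genes. HSPA1B was at 9.60 CPM in cells and at 29.9 and 21.8 in lysate (log2 −1.40). HSPA1A had 1 read in cells and 39 in the lysate libraries, so that lysate was higher by a ratio of 9.26 with a counting interval from 1.57 to 375. It averaged 1.5 reads per well in each lysate library and 0.167 in cells. HSPA1A therefore met the mean of 1 through lysate alone, where it was high, and its call is partly set by the filter. The median of all genes was −0.25, and without the 6 matching wells of lysate library 2 the same count was found.

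**Figure D4:**
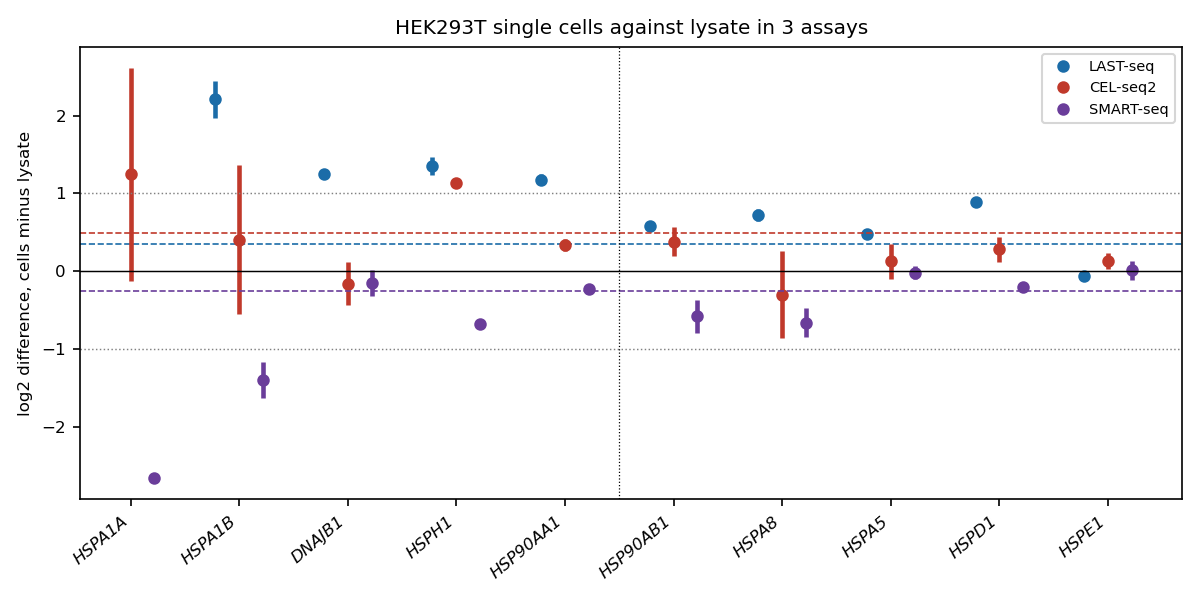
Log2 difference of cells over lysate for each member in the 3 assays, with 0.5 counts added, as the mean (dots) and range (bars) over pairs of libraries, the median of all genes (dashed) and 2-fold either way (dotted), without HSPA1A by LAST-seq, which averaged under 1 UMI. By LAST-seq HSP90AA1 (1.18), HSPH1 (1.35), DNAJB1 (1.25) and HSPA1B, which rests on 1 lysate UMI, lay past 2-fold. By SMART-seq HSPA1A and HSPA1B lay past it in the other direction. HSPA1B by LAST-seq and HSPA1A by SMART-seq averaged 1 count per well only in the group where they were higher.

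The spread between wells was described as excess noise, the variance beyond that of counting divided by the squared mean, of UMIs scaled to the median total of a library. By LAST-seq, 6 members reached a mean of 5 UMIs in all 3 libraries. HSP90AB1 and HSPD1 had more excess noise in both cell libraries than in lysate, 2 of 6 members compared with 45.4% of 1965 genes. HSP90AB1 was at 0.00973 and 0.0153 in cells and 0.00787 in lysate, and HSPD1 at 0.0171 and 0.0259 compared with 0.0116. HSPA8 was at 0.0375 and 0.134 in cells and 0.0835 in lysate, so that lysate lay between the cell libraries. With 10 wells a library these values are imprecise.

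In eHAP1, 8 members reached a mean of 5 UMIs per cell in every batch, among 2281 genes, with medians over these genes of 0.0110 and 0.0123 in WT and 0.0118 and 0.0123 in KO. In WT 7 of the 8 were below the median gene in both batches, compared with 35.0% of the 2281 genes, all but HSPA5, which had more excess noise than 73.8% and 77.9% of genes. In KO 4 were below it in both batches, compared with 38.7% of genes, namely HSP90AA1, HSP90AB1, HSPE1 and HSPH1. Without scaling to the median total, which leaves the differences in depth between cells in the variance, 0 of the 8 were below it in WT and 2, HSPA5 and HSPH1, in KO. HSPA8 had more excess noise than 22.9% and 25.6% of genes in WT and than 80.9% and 90.9% in KO. HSPD1 stood at 27.8% and 6.66% in WT and at 65.6% and 67.7% in KO. Both of these genes also rose in level in KO, and the difference in rank between genotypes was not tested. Since the batches were closer to each other than counting error allows, a rank found in both is not an independent repeat. Whether a batch correction changed the spread between cells was not tested.

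**Figure D5:**
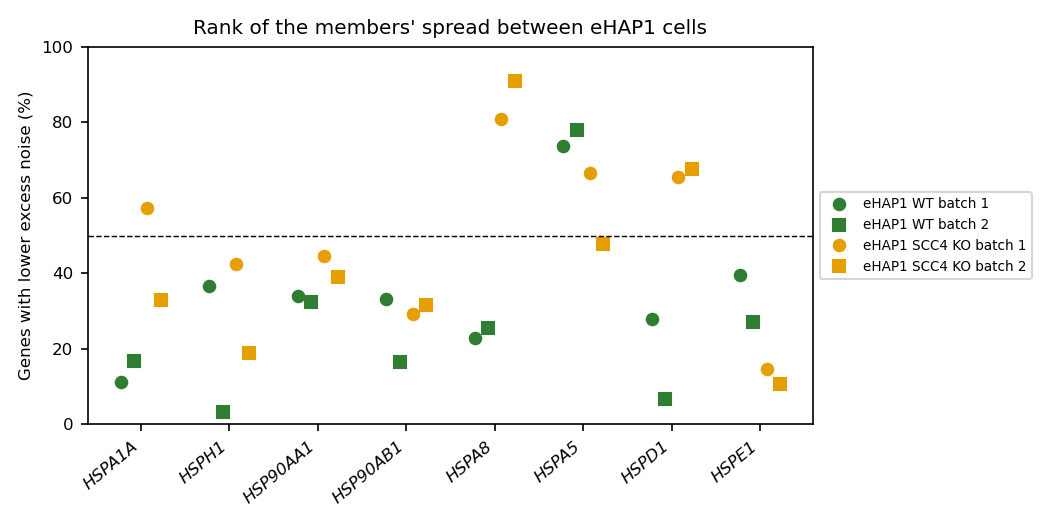
Rank of each member's excess noise among the 2281 genes, as the percent of genes with less, in each eHAP1 batch, with a dashed line at 50, the median gene. HSPA8 moved from 22.9% and 25.6% in WT to 80.9% and 90.9% in KO, and HSPE1 stayed below the line in all 4 batches. The batches of a genotype are not independent repeats.

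Correlations between members over the cells of a batch were weak, and nothing is read from them. Several members had few UMIs per cell or an excess noise near 0, such as HSPA1A at −0.00584 and 0.000846 and HSPD1 at 0.00266 and −0.00568 in WT, and counting error alone then keeps a correlation near 0. As a description over 73 to 77 cells sharing library and depth, the median Spearman correlation between 6 pairs of inducible members was −0.06 and 0.04 in the WT batches and 0.15 and −0.01 in the KO batches. It was −0.05, 0.02, 0.18 and 0.05 for the 10 pairs of constitutive members, and 0.00 in each batch over all pairs of genes. The pair with the highest lowest correlation was HSP90AB1 with HSPD1, at 0.30 and 0.05 in WT and 0.29 and 0.53 in KO. HSPD1 with HSPE1 was at −0.19 and 0.12 in WT and 0.23 and −0.03 in KO.

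The same limit holds for the genes outside the members with the closest, but weak, correlation to the summed inducible members. Over the 4908 genes that averaged 2 or more UMIs per cell, ranked by the lowest correlation over the 4 batches, they were IRS2 (0.16), RPL37 (0.14), ALDH9A1 (0.14), YWHAB (0.13) and SMAD5 (0.13). HSP90AA1 reached 0.95, since it makes up most of that sum, and HSPH1 0.11, and HSPA1A and DNAJB1 were at −0.10 and −0.12.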

How the data were processed

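UMIs per gene (LAST-seq, CEL-seq2) and reads per gene (SMART-seq) were analysed as the whole-number counts deposited by the authors, who converted reads with bcl2fastq 2.20, trimmed, aligned to GRCh38 with spike-in sequences, subsampled to equal depth and counted exon reads, collapsing UMIs by sequence with zUMIs. Whether the subsampling took in the eHAP1 cells, of 18022 to 926415 UMIs, is not given in the sources used here. Subsampling limits rare transcripts, and UMIs remove amplification copies that SMART-seq reads keep. Groups followed the labels, and eHAP1 batches the cell names. IDs were mapped to symbols with the annotation, and spike-in rows were left out. Counts were summed per library or batch, since cells are not replicates, and tested with edgeR 4.0.16 (TMM, filter on low counts, Benjamini-Hochberg over all genes) in R 4.3.3. DESeq2 1.42.0, other scalings, filters and omitted libraries were alternatives, as was adding pseudogene UMIs, which was chosen after seeing the data. 0.5 counts were added to fold differences without a test. The edgeR and DESeq2 fits, the 2-fold rule for LAST-seq cells over lysate and the mean excess noise were tried on simulated data. The other statistics were not. The simulated libraries were drawn independently, unlike the eHAP1 batches, which were closer than counting error allows. The 10 members, the gene lists and the tests were chosen with earlier results of these data known. All members were named, as were, of each list in the comparisons of KO with WT and of the lines, the 3 called genes with the largest change. VIM and NEFL, and the markers given with them beside the KO result, were chosen after their values were seen. Promoters are from RefSeq.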

Additional observations from a re-analysis of the deposited data

Results flagged for a closer look

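The difference between cells and lysate had opposite signs between assays for several members. The median of all genes also changed sign, between SMART-seq and either LAST-seq or CEL-seq2. These are differences between assays of the log2 difference of cells over lysate, counted where every pair of libraries moved one way in one assay and the opposite way in the other, and none of them was tested. LAST-seq minus SMART-seq was 1.41 for HSP90AA1, 1.16 for HSP90AB1, 3.61 for HSPA1B, 1.39 for HSPA8, 1.09 for HSPD1 and 2.03 for HSPH1. CEL-seq2 minus SMART-seq was 0.57 for HSP90AA1, 0.96 for HSP90AB1, 0.49 for HSPD1 and 1.81 for HSPH1. LAST-seq minus CEL-seq2 was −0.19 for HSPE1. The median of all genes was itself 0.35 by LAST-seq, 0.49 by CEL-seq2 and −0.25 by SMART-seq, and the HSPA1B value rests on 1 UMI in LAST-seq lysate. The share of all genes that meet this rule was not taken, so the list is not read as particular to the members.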

How the results depend on the processing

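Of the counts and shares under all alternatives, 39 stayed close to the reported value and 17 moved. Of single genes, 342 kept direction and side of the threshold, 25 lost and 14 gained a call, and 14 changed sign. With the batch as a replicate block the same 6 members were called in KO, and nothing says that batches with 1 number were handled together. The over 2-fold rule gave 0 members in KO and 2 between lines. Leaving out 1 library gave 2 to 7 members in KO, 4 to 7 between lines, 0 to 3 between LAST-seq and CEL-seq2, 2 in both cases for CEL-seq2 cells over lysate and 3 to 4 for excess noise. Between LAST-seq and CEL-seq2, 1 member was called without the filter and 2 with total UMIs. TMM left 1 member past 2-fold over lysate by LAST-seq and 0 by CEL-seq2. Excess noise counted 1 member without the extreme wells and 5 unscaled by LAST-seq, and 0 unscaled in WT eHAP1 in place of 7. With HSP90AA1 constitutive, the inducible share differed by −1.09 in place of −12.4 percentage points in KO and by 1.82 in place of 11.2 in LAST-seq cells over lysate. Signs changed as follows, none of them in a called gene of the reported fits. Between lines HSPH1 was at −0.0032 without the filter and between −0.08 (without LAST-seq library 1) and 0.23 without 1 library, with −0.02 without WT batch 1, and HSPE1 at 0.06 with total UMIs. Between LAST-seq and CEL-seq2, total UMIs gave −0.09 for HSPA5 and −0.08 for HSPH1, and HSPA8 ranged from −0.56 to 0.77, without CEL-seq2 libraries 1 and 2, with 0.02 without LAST-seq library 1. In KO HSP90AB1 was at 0.02 with total UMIs, 0.01 without KO batch 2 and −0.11 to 0.04 without a WT batch, HSPA1B at −0.32 without KO batch 2 and −0.78 to 2.1 without a WT batch, and HSPA5 at −0.01 without WT batch 1 and 0.1 without KO batch 2. With 2 libraries a group and 10 wells a library, depth limits HSPA1A and HSPA1B in the UMI libraries of HEK293T, which rest on 0 to 39 and 1 to 68 UMIs. The cause of these shifts was not tested.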
